A study of Mus musculus with 30 samples.

Results

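The interferon response and antigen presentation genes described here are 33 mouse genes, taken from a list of symbols with no threshold on a measured value, although earlier results of these data were known when the list was drawn up. They were 6 sensors and transcription factors, 15 antiviral effectors, 6 interferon-inducible GTPases and 6 genes of class I antigen presentation. All 33 were among the 24467 gene IDs of the deposited tables, and all 33 passed the filter on low counts that left 13588 genes to be tested. RNA came from left ventricle tissue in 30 libraries, each called a heart below, although the labels do not say beyond their replicate numbers that each came from its own animal. NTG mice, which the sample titles call wild type, carried no transgene, and TG mice carried hRXFP1, a transgene for the human relaxin receptor whose overexpression the study title describes as cardiomyocyte specific. Each genotype had a Sham group (n = 5) and a group with 8 weeks of TAC (n = 10), transverse aortic constriction, which loads the left ventricle by narrowing the aorta. Age, sex, strain and the promoter that drives the transgene are not given in the sources used here, and transgene expression was not analysed here.

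Interferons are secreted proteins, and cells release those of type I when sensors such as MDA5, the product of Ifih1, meet foreign or misplaced nucleic acid. Type I interferons signal through JAK kinases to a complex that holds STAT2 and IRF9 and binds the interferon-stimulated response element (ISRE). Interferon gamma acts through the gamma-activated site (GAS). The induced genes include antiviral effectors, GTPases that act on the vacuoles of intracellular pathogens, and the machinery that loads peptides onto MHC class I. In the heart these genes are known to be expressed in cardiomyocytes as well as in resident macrophages, endothelial cells and fibroblasts. In bulk tissue, a change in the number of cells of a type and a change in RNA per cell cannot be told apart.

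Levels below are counts per 1000000 counts of the library, scaled by TMM factors (CPM), and a library held 9231678 to 13093351 counts. A gene was called where the adjusted p of edgeR's quasi-likelihood test was under 0.05, and fold changes are log2 values ± standard error. NTG Sham replicate 5 held thymocyte and T cell markers at a summed 419.7 CPM, against 6.44 to 34.8 CPM in the other 29 libraries. That heart was the highest of its group for 11 of the 33 genes, beside 22.4% of all tested genes, and its mean over the 33 genes was 0.03 on the log2 scale above the NTG Sham mean. Its deposited name carried a number under 100, as did 7 of 10 NTG TAC and 9 of 10 TG TAC names, whereas the other 4 NTG Sham and all 5 TG Sham names carried 100 or more. What these numbers stand for is not given in the sources used here, so values within each range stand beside several of the results they touch. They are not given for every gene.

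The promoters shown first were picked from genes that were highest together in single hearts, and each holds an ISRE match. Other genes highest in the same hearts, such as Oasl2 and Tap1, had no ISRE match and are not shown. Each line gives the 160 bases before the RefSeq start of the gene (GRCm38.p6), on the strand of the gene, with letters of an ISRE (a pair of GAAA units with any 2 bases between them) or a GAS (TTCNNNGAA) on either strand in capitals; matches may overlap. The first 5 are antiviral effectors, 4 GTPases follow, and B2m, the class I light chain, is last.
Isg15: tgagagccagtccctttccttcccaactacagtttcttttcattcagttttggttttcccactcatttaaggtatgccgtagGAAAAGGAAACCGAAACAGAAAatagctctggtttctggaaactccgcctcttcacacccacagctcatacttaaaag
Ifit1: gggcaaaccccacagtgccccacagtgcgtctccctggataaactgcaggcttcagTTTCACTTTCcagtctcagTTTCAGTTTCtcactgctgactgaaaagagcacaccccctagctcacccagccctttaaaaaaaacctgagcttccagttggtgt
Ifit3: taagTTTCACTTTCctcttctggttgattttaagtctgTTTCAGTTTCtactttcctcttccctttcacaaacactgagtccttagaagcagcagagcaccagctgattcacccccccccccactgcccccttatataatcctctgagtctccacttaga
Bst2: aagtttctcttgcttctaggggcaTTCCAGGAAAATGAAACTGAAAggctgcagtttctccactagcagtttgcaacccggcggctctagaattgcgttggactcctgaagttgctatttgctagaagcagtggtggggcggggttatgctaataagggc
Oas1a: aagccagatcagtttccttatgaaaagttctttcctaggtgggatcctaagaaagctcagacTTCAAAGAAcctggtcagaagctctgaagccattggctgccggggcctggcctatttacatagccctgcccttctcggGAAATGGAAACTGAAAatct
Igtp: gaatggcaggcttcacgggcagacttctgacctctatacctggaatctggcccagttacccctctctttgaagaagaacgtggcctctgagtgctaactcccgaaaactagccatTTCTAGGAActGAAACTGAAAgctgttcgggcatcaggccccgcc
Irgm2: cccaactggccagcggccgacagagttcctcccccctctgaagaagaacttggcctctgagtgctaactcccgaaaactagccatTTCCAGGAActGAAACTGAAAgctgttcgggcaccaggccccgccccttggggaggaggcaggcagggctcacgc
Gbp2: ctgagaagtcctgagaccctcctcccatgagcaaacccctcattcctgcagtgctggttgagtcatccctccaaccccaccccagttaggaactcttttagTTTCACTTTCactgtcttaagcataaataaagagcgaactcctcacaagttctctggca
Gbp7: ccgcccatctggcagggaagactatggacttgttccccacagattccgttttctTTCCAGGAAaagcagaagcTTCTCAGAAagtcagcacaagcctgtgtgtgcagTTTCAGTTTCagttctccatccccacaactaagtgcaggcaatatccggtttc
B2m: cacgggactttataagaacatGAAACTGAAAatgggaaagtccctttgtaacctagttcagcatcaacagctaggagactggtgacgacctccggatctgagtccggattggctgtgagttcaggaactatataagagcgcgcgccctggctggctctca

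These windows lie at chr4:156200819-156200978 for Isg15, at chr19:34640729-34640888 for Ifit1 and at chr19:34583369-34583528 for Ifit3, of which only Isg15 is on the minus strand. Bst2 is at chr8:71537473-71537632 and Oas1a at chr5:120907526-120907685, both on the minus strand. Igtp is at chr11:58199396-58199555, Irgm2 at chr11:58214817-58214976, Gbp2 at chr3:142620503-142620662, Gbp7 at chr3:142530176-142530335 and B2m at chr2:122147527-122147686, all on the plus strand. Isg15, a ubiquitin-like protein conjugated to other proteins in antiviral defence, had 3 overlapping ISRE matches that start 78, 72 and 66 bases before the gene start. Ifit1, which binds foreign RNA, and Ifit3, of the same family, each held 2 separate ISRE matches. Igtp and Irgm2, nearby genes for immunity-related GTPases, both held a GAS match that starts 11 bases before an ISRE match.

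RefSeq promoter windows of 300 bases, 250 before to 50 after the start, were matched for 29 of the 33 genes and gave 34 windows. An ISRE match was present in 16 of the 34 windows (47.1%), compared with 1131 of all 32851 windows (3.44%). By class this was 7 of 12 windows of antiviral effectors, 6 of 7 of GTPases, 2 of 8 of sensors and transcription factors and 1 of 7 of class I genes. A GAS match was present in 9 of 34 windows (26.5%), compared with 8.30% of all windows, and both motifs were present in 6 of 34, compared with 0.454% of all. In the same order of classes, GAS matches were present in 4 of 12, 3 of 7, 1 of 8 and 1 of 7 windows. Differences between the classes were not tested. Of the genes that were called below, Ifih1 and Ifitm3 had ISRE matches after the start of the gene. Ifit2 had no ISRE match in its 2 windows and a GAS match 241 bases before the start. Psmb9 and Tap1 are read in opposite directions from neighbouring starts, so their windows share most of their bases. The 2 windows of H2-K1 also share most of their bases.

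Per kilobase of exon, B2m was the most abundant of the 33 genes, with a mean over the groups of 478 CPM per kb. Ifitm3, a membrane protein that blocks the fusion of viruses with endosomes, followed at 126 CPM per kb. The class I heavy chains came next, with H2-D1 at 73.6 and H2-K1 at 52.0 CPM per kb, and Bst2, which tethers budding virions to the cell surface, had 24.3 CPM per kb. Ifih1 at 1.36 and Ifi44 at 1.25 CPM per kb were the lowest. Reads shared by near copies (Ifit3 and Ifit3b, Oas1a and Oas1g, Gbp3 and Gbp7, Igtp and Irgm2, H2-K1 and H2-D1) could be split between them, so the levels of these genes are uncertain. Overlap with another counted gene also touches Stat2, Ifit1, Rtp4, Ifi27, Gbp2 and B2m.

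**Figure D1:**
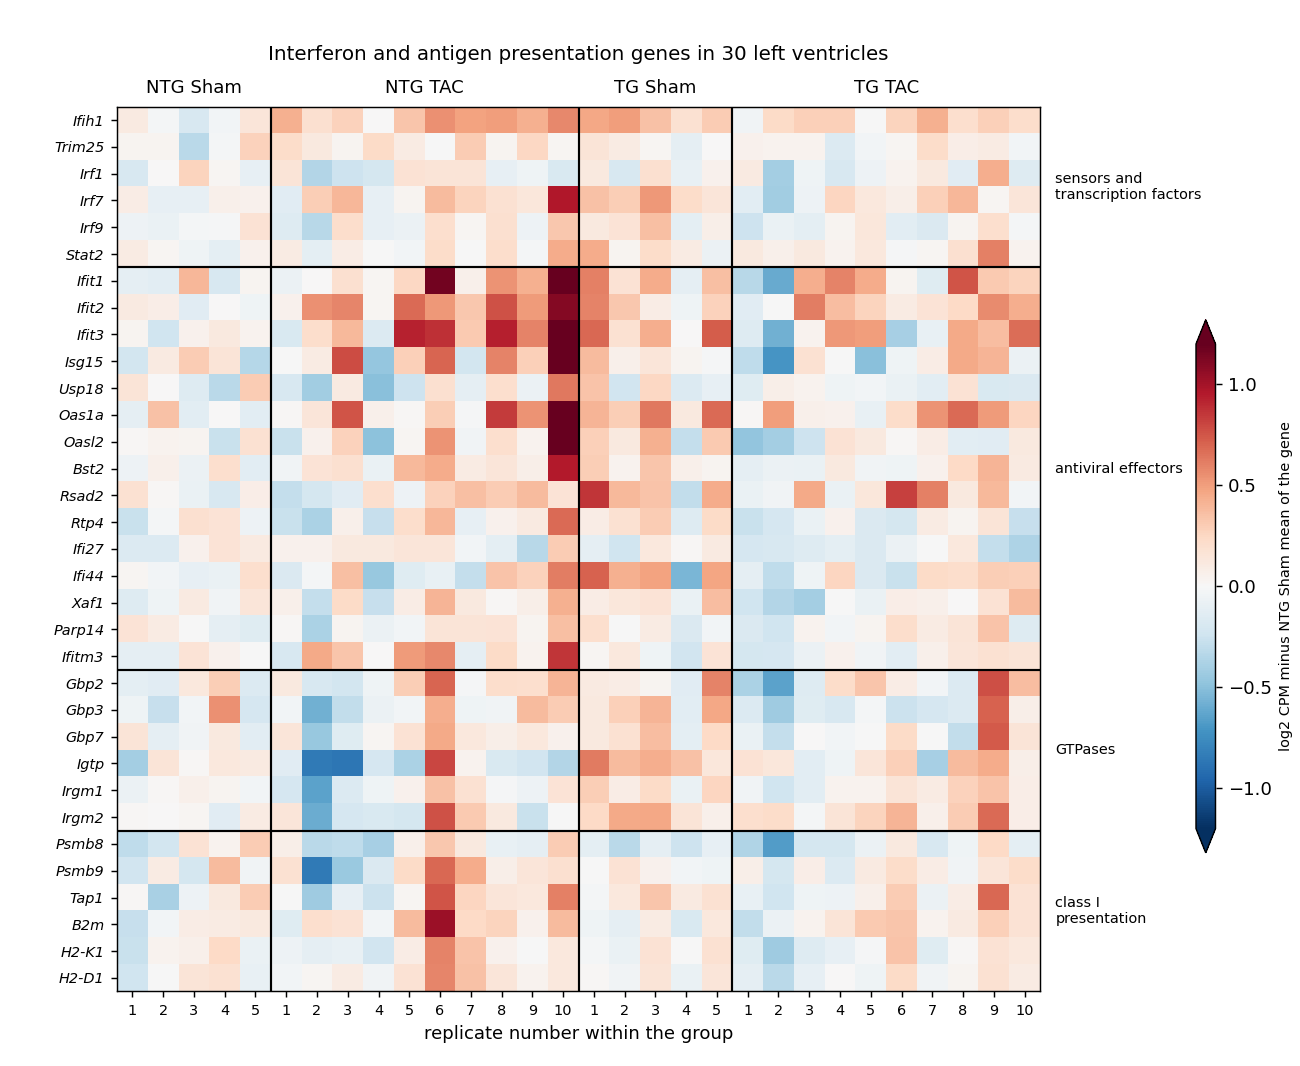
Colour shows log2 CPM of each of the 33 genes (rows, by class) in each of the 30 hearts (columns, by group and replicate number) minus the NTG Sham mean of that gene; the colour scale ends at 1.2 in each direction. NTG TAC replicate 10 is high across antiviral effectors, NTG TAC replicate 6 across GTPases and class I genes, and TG TAC replicate 9 across GTPases.

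Whether pressure overload changed the interferon genes of non-transgenic hearts was asked by NTG TAC against NTG Sham. Ifih1 and Ifit2 rose, and the other 31 genes did not pass the test. These 2 of 33 genes (6.06%) compare with 9.46% of all tested genes called higher. None of the 33 was called lower, beside 8.13% of all genes (8 of the 33 had an unadjusted p under 0.05 in either direction, beside 32.5% of all genes, and DESeq2 also called none lower). The log2 fold change was positive for 28 of the 33, with a median of 0.10, beside a median of 0.00 over all genes. Within names of 100 or more (3 NTG TAC and 4 NTG Sham hearts) the median difference was 0.01, with 17 of the 33 positive. Within names under 100 it was 0.21 with 23 positive, but from 7 NTG TAC hearts and only 1 NTG Sham heart, replicate 5. Without NTG Sham replicate 5 the same genes were called, beside 7.49% of all genes called higher and 6.06% lower, and the median was 0.13.

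Ifih1 had 9.98, 9.10, 8.06, 9.08 and 10.3 CPM in NTG Sham replicates 1 to 5. In the 10 NTG TAC hearts it ran from 9.33 to 13.9 CPM, with a median of 12.5. All 10 NTG TAC hearts were above the NTG Sham mean, although the ranges overlapped through NTG TAC replicate 4. The means were 9.30 ± 0.871 (SD, n = 5) and 12.2 ± 1.44 CPM (SD, n = 10). The log2 difference was 0.39 ± 0.09, and edgeR gave it an adjusted p of 0.00624. The call was kept with each library left out in turn, but lost with 1 surrogate variable (adjusted p = 0.0747) and in the fit of these 2 groups alone (0.0565). Within names of 100 or more the difference was 0.34 on the log2 scale (3 NTG TAC and 4 NTG Sham hearts), and within names under 100 it was 0.26 (7 hearts and 1).

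Ifit2, an antiviral protein of the IFIT family, had 16.6, 16.3, 14.03, 15.5 and 14.9 CPM in NTG Sham replicates 1 to 5. In NTG TAC hearts it ran from 15.6 to 33.3 CPM, with a median of 22.4. Replicates 1 and 4 of NTG TAC lay within the Sham range and the other 8 lay above it. The means were 15.4 ± 1.04 (SD, n = 5) and 22.5 ± 5.12 CPM (SD, n = 10). The log2 difference was 0.55 ± 0.14, and edgeR gave it an adjusted p of 0.0102. This call too was kept with each library left out, and lost with 1 surrogate variable (log2 fold change 0.29, adjusted p = 0.255) and in the fit of these 2 groups alone (0.0594). Within names of 100 or more the difference was 0.38, and within names under 100 it was 0.61.

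Ifit3 had 7.95 to 10.2 CPM in NTG Sham hearts (median 9.66) and 8.24 to 30.1 CPM in NTG TAC hearts (median 13.3). Its log2 fold change was 0.67 ± 0.25 with an adjusted p of 0.0556 by edgeR, and DESeq2 called it (adjusted p = 0.0285). It also passed without replicate 1, 4 or 7 of the NTG TAC group, and without TG TAC replicate 2. Without NTG TAC replicate 10, the highest heart, the fold change was 0.49 ± 0.21 (adjusted p = 0.108). Within names of 100 or more the difference was 0.15, and within names under 100 it was 0.69. Ifitm3, at 0.30 ± 0.12 (adjusted p = 0.0785), likewise passed only without NTG TAC replicate 1, 4 or 7.

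Among the remaining antiviral effectors, Oas1a, which makes the messenger that activates RNase L, stood 0.52 ± 0.21 higher on the log2 scale without passing (edgeR, adjusted p = 0.0876). Without NTG TAC replicate 10 it was 0.34 ± 0.17. The median over the 15 antiviral effectors was 0.23, and 0.11 without NTG TAC replicate 10. The median over the 6 GTPases was 0.01, over the 6 class I genes 0.11 and over the 6 sensors and transcription factors 0.11. Without NTG TAC replicate 6 the class I median was 0.03 and the GTPase median -0.06.

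A further 7 genes gave no call in any of the 5 comparisons by edgeR, DESeq2, limma voom or limma-trend, and by edgeR 1 difference, that of Rsad2 between the Sham groups, had an unadjusted p under 0.05. Irf1, a transcription factor of the interferon gamma response, had group means from 32.3 to 33.7 CPM. Irf9, the DNA-binding subunit of the type I complex, had 28.9 to 32.2 CPM, and Usp18, which removes ISG15 from its targets, had 5.53 to 5.88 CPM. Those 3 genes thus had group means within a few CPM of each other. Parp14, an ADP-ribosyltransferase, had 27.7 to 28.7 CPM, and Xaf1, a pro-apoptotic protein, 14.2 to 15.9 CPM. Irgm1, an immunity-related GTPase, had 29.1 to 33.04 CPM. Rsad2, the antiviral enzyme viperin, had 23.1 ± 2.33 CPM in NTG Sham and 30.3 ± 8.196 CPM in TG Sham hearts (SD, n = 5 each), and its log2 difference of 0.39 ± 0.18 did not pass (adjusted p = 0.637 by edgeR).

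**Figure D2:**
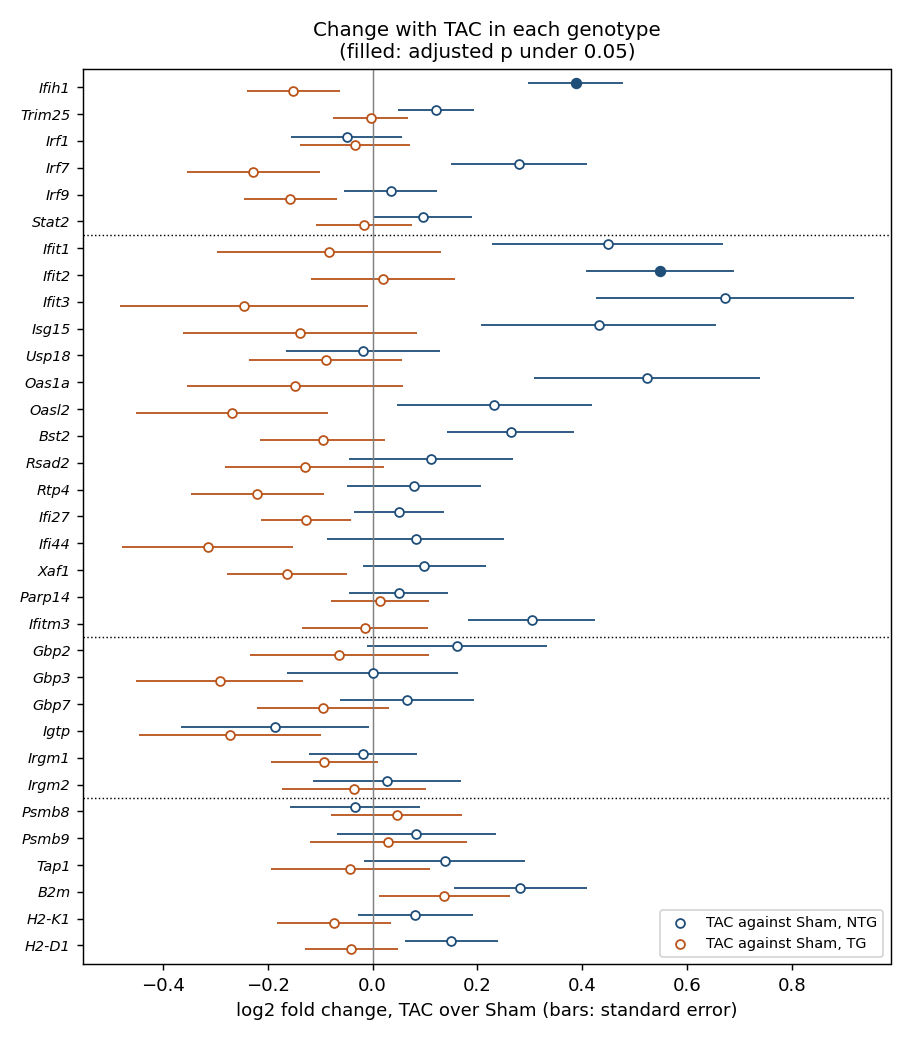
Log2 fold change of TAC over Sham with its standard error for the 33 genes, in NTG (dark blue) and TG (orange) hearts; filled points had an adjusted p under 0.05. Ifih1 and Ifit2 in NTG hearts are the filled points, and 28 of the 33 orange points lie below 0.

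In TG hearts the same surgery was followed by no called change in the 33 genes, beside 1.43% of all tested genes called in either direction. None had an unadjusted p under 0.05 by edgeR, beside 14.5% of all genes. DESeq2, limma voom and limma-trend also called none, with 0, 5 and 0 genes at an unadjusted p under 0.05. The log2 fold change was negative for 28 of the 33, with a median of -0.09. The 33 genes vary together across hearts, so the signs in this and the other comparisons are not separate observations. Ifih1 was -0.15 ± 0.09 (means of 12.0 ± 1.07 CPM over 5 TG Sham hearts and 10.8 ± 1.04 CPM over 10 TG TAC hearts, ± SD). Ifit2 was 0.02 ± 0.14 and Ifit3 was -0.25 ± 0.24. With the standard errors of this comparison, from 0.07 to 0.24 over the 33 genes, small changes in either direction were not detectable. No TG Sham heart had a name under 100, and only TG TAC replicate 1 had one of 100 or more. Within names of 100 or more, that heart differed from the 5 TG Sham hearts by -0.41 for Ifih1 on the log2 scale, with a median of -0.26 over the 33 genes, of which 3 were positive. With a term for the name number the Ifih1 fold change was -0.31 ± 0.11 (adjusted p = 0.242 by edgeR) and the median -0.30, with 0 of the 33 positive.

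The interaction, which asks whether the TAC difference itself differed between the genotypes, was called for none of the 33 genes. It was called for 0% of all genes by edgeR, with 6 of the 33 at an unadjusted p under 0.05, beside 8.12% of all genes. DESeq2 called 5 genes of the table and limma-trend 1, none of them among the 33. The estimate was negative for 31 of the 33, with a median of -0.19 beside 0.00 over all genes. Ifih1 had the smallest adjusted p of the 33, with -0.54 ± 0.13 (adjusted p = 0.266 by edgeR). Ifit3 was -0.92 ± 0.34 (adjusted p = 0.614). The TAC differences of NTG and TG hearts are therefore not shown to differ for any gene of the 33.

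Between the genotypes after Sham, none of the 33 genes was called, beside 0.729% of all tested genes called in either direction. By edgeR 3 had an unadjusted p under 0.05, beside 7.27% of all genes, and DESeq2 and limma-trend also called none. The log2 fold change was positive for 30 of the 33, with a median of 0.15, beside -0.01 over all genes. The same held without NTG Sham replicate 5, where 30 were positive with a median of 0.16. The TAC comparisons use these Sham groups as their baseline, so they are not independent of this difference.

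Ifih1 and Irf7, the master transcription factor of the type I interferon response, were the genes whose Sham groups did not overlap, beside 1.90% of all genes not overlapping in the higher direction. In TG Sham replicates 1 to 5 Ifih1 had 12.8, 13.2, 11.9, 10.5 and 11.5 CPM, each above the highest NTG Sham heart at 10.3 CPM. Its log2 fold change was 0.37 ± 0.10 with an adjusted p of 0.114 by edgeR. It was called by limma voom with quality weights (adjusted p = 0.0221) and with a term for the name number (0.0482). For Irf7 the TG Sham hearts had 26.5, 25.4, 29.6, 24.1 and 22.8 CPM, against 22.1, 19.2, 19.3, 21.5 and 21.5 CPM in NTG Sham. The lowest TG Sham heart was thus just above the highest NTG Sham heart, and the fold change of 0.31 ± 0.15 did not pass (adjusted p = 0.666 by edgeR).

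All 6 GTPases had a positive fold change after Sham, with a median of 0.19. Antiviral effectors had a median of 0.16 and sensors and transcription factors 0.14. Without NTG Sham replicate 5 these medians were 0.16, 0.18 and 0.17, so the classes keep no fixed order. Igtp was at 35.9, 30.2, 31.5, 29.7 and 25.5 CPM in TG Sham and at 17.5, 25.9, 23.4, 25.4 and 24.9 CPM in NTG Sham hearts, with 1 TG Sham heart inside the NTG range. Its log2 fold change was 0.38 ± 0.20 (adjusted p = 0.756 by edgeR). Class I genes had a median of 0.02. TG Sham replicate 4 was the lowest of its group for 20 of the 33 genes, beside 18.1% of all genes, and the highest for 0, beside 18.6% of all genes.

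After TAC, TG against NTG hearts gave 1 called gene, Ifitm3, which was lower in TG hearts. That is 3.03% of the 33, beside 6.86% of all tested genes called lower. None was called higher, beside 4.57% of all genes (10 of the 33 had an unadjusted p under 0.05 in either direction, beside 27.8% of all genes, and DESeq2 called none higher). The median log2 fold change over the 33 was -0.11, and -0.08 without NTG TAC replicate 10. It was negative for 14 of 15 antiviral effectors, 4 of 6 sensors and transcription factors, 2 of 6 GTPases and 6 of 6 class I genes. In NTG TAC hearts Ifitm3 ran from 70.8 to 146 CPM with a median of 98.0, and in TG TAC hearts from 69.6 to 91.5 CPM with a median of 81.1. The TG TAC hearts all lay below the NTG TAC mean, and 2 of them, at 69.6 and 70.1 CPM, lay below the lowest NTG TAC heart. The means were 99.8 ± 23.6 and 80.7 ± 8.13 CPM (SD, n = 10 each). The log2 difference was -0.31 ± 0.10, with an adjusted p of 0.0386 by edgeR. Both Sham groups were near the TG TAC level, at 80.9 ± 6.65 (NTG) and 81.5 ± 8.62 CPM (TG) (SD, n = 5 each).

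Without NTG Sham replicate 5 the 1 called gene was again Ifitm3, beside 7.37% of all genes called lower and 4.28% higher. The call was lost with 1 surrogate variable (-0.11, adjusted p = 0.562), with limma voom (0.156), in the fit of these groups alone (0.0896), with limma-trend (0.0785) and without the filter on low counts (0.0533). Any of 5 NTG TAC hearts (replicates 2, 3, 5, 6 and 10) and any of 5 TG TAC hearts (replicates 1, 2, 3, 5 and 6) also ended it when left out. Without NTG TAC replicate 10 the fold change was -0.24 ± 0.09 (adjusted p = 0.0931). Within names under 100 the difference was -0.28 on the log2 scale (9 TG and 7 NTG hearts). Other single libraries brought other genes past the threshold. Without NTG TAC replicate 4 the calls were Ifih1, Ifit2, Ifit3, Isg15 and Ifitm3, all lower. Ifit2 and Ifit3 were also called lower without NTG TAC replicate 1, Isg15 and Ifi27 without replicate 7, and Ifi27 without replicate 9 of NTG TAC or replicate 8 of TG TAC.

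Igtp and Irgm2 had positive fold changes in this comparison. Igtp had 12.6 to 40.5 CPM in NTG TAC hearts (median 19.9) and 17.5 to 31.7 CPM in TG TAC hearts (median 25.6), a log2 fold change of 0.30 ± 0.15 (adjusted p = 0.179 by edgeR). The 40.5 CPM belonged to NTG TAC replicate 6, and the next NTG TAC heart had 23.9 CPM. Without replicate 6 both genes were called higher in TG TAC hearts, Igtp at 0.46 ± 0.11 (adjusted p = 0.00963) and Irgm2 at 0.33 ± 0.09 (adjusted p = 0.0200). With all hearts kept, the Igtp difference within names under 100 was 0.17 on the log2 scale (9 TG and 7 NTG hearts). Within names of 100 or more it was 0.80, from 1 TG and 3 NTG hearts. Such values were not computed for Irgm2. In the 6 class I genes the fold changes were all negative, from -0.17 to -0.04, and none passed.

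**Figure D3:**
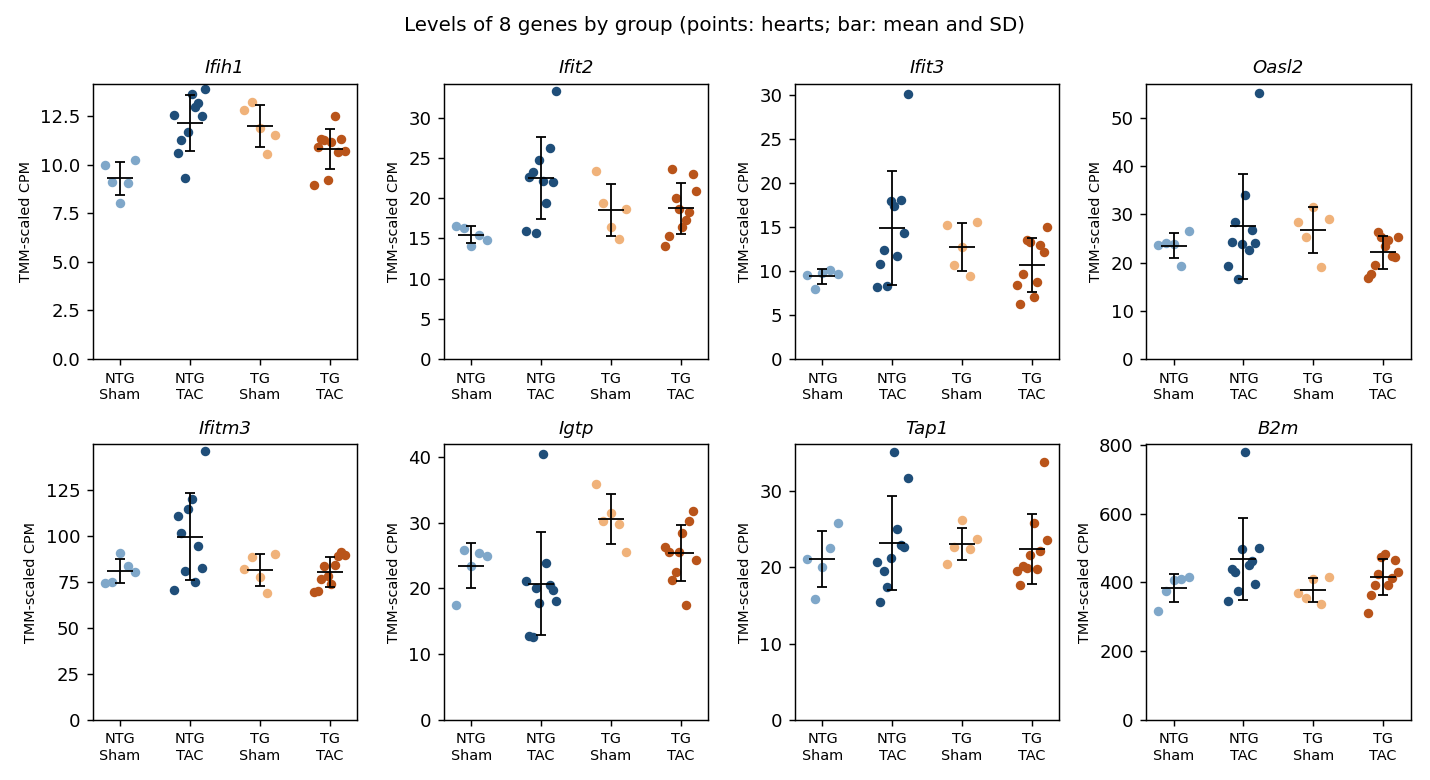
TMM-scaled CPM (linear axes from 0) of 8 of the genes in every heart of the 4 groups, with the mean and SD as bars. Ifih1 and Ifit2 lie higher in NTG TAC than in NTG Sham hearts, Ifitm3 is most spread in NTG TAC hearts, and single NTG TAC hearts reach 30.1 CPM of Ifit3, 55.2 CPM of Oasl2, 40.5 CPM of Igtp and 778 CPM of B2m.

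The 33 genes varied more from heart to heart after TAC in NTG mice than in the other groups. The median SD of log2 CPM over the 33 genes was 0.31 in NTG TAC (n = 10), 0.23 in TG TAC (n = 10) and 0.16 in each Sham group (n = 5). Over all tested genes it was 0.22, 0.16, 0.15 (NTG Sham) and 0.14 (TG Sham). Without NTG TAC replicates 6 and 10, a choice made after seeing the data, the NTG TAC value was 0.21 for the 33 genes and 0.20 for all genes. No test was made of these spreads.

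In NTG TAC hearts 2 replicates held most of the highest values, and they held different classes. Replicate 10 was the highest of the 10 hearts for 18 of the 33 genes, all of them among the 21 sensors, transcription factors and antiviral effectors, beside 19.5% of all genes highest in it. It had 55.2 CPM of Oasl2, a member of the OAS family, against 16.6 to 33.9 CPM in the other 9, and 40.5 CPM of Irf7 against 18.8 to 27.2 CPM. It also had 8.26 CPM of Isg15, against 2.33 to 5.76 CPM. Replicate 6 was the highest for 12 genes, which were all 6 GTPases and all 6 class I genes, beside 11.6% of all genes. It had 778 CPM of B2m, against 345 to 499 CPM in the other 9 hearts. It had 35.1 CPM of Tap1, a subunit of the peptide transporter that feeds class I molecules, and replicate 10 followed at 31.8 CPM.

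Expressed as the mean log2 difference from NTG Sham, the antiviral effectors were at 0.87 in NTG TAC replicate 10 and at 0.44 in replicate 6, while the GTPases were at 0.09 and 0.58. Class I genes were at 0.29 and 0.66. NTG TAC replicate 2 had GTPases at -0.55 and antiviral effectors at 0.00. In TG TAC hearts the highest mean over all 33 genes was 0.32, in replicate 9, which was the highest of its group for 16 genes, the 6 GTPases included, beside 9.18% of all genes. Its Stat2, a subunit of the type I complex, was at 42.2 CPM, against 27.5 to 31.7 CPM in the other 9 TG TAC hearts.

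Beside these values, macrophage and monocyte markers summed to 1065 CPM in NTG TAC replicate 10, the highest of all 30 hearts, and to 601 CPM in replicate 6 and 479 CPM in TG TAC replicate 9. NTG TAC replicate 3 had 678 CPM, with a mean log2 difference of 0.07 over the 33 genes. TG TAC replicate 2 had 536 CPM, the highest of its group, with a mean of -0.21, the lowest of all 30 hearts. The group ranges were 316 to 418 (NTG Sham), 271 to 1065 (NTG TAC), 352 to 508 (TG Sham) and 308 to 536 CPM (TG TAC), with none of the 14 markers at 0 in any heart. Of the 14, 6 rose with TAC in NTG hearts (Cd14, Fcgr1, C1qa, C1qb, C1qc and Ly6c2), and none was called in the other comparisons. Fibroblast markers summed to 6365 CPM in NTG TAC replicate 10, against 1234 to 4243 CPM in the other NTG TAC hearts and 2027 CPM in replicate 6. Of 8 fibroblast markers 5 rose with TAC in NTG hearts, and 4 of 8 were lower in TG TAC than in NTG TAC hearts. Cardiomyocyte markers were lowest in NTG TAC replicate 10, at 43855 CPM, against 60636 to 80358 CPM in the other NTG TAC hearts. The part of these cell types in the levels of the 33 genes was not tested.

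**Figure D4:**
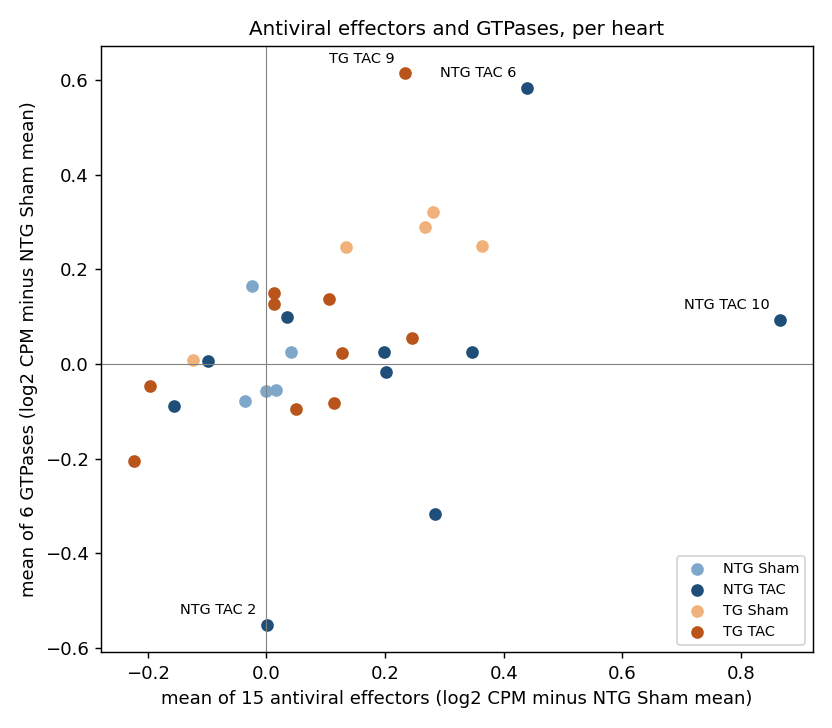
Each point is a heart, at its mean over 15 antiviral effectors (x axis) and over 6 GTPases (y axis), both as log2 CPM minus the NTG Sham mean; colours are the 4 groups. NTG TAC replicate 10 lies far to the right at 0.87 with GTPases at 0.09, while NTG TAC replicate 6 and TG TAC replicate 9 are the highest points, at 0.58 and 0.61.

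After each gene was centred on its group means, most pairs of the 33 genes were positively correlated across the 30 hearts. The median Pearson correlation over the 528 pairs was 0.43, and 0.44 without NTG Sham replicate 5, beside 0.00 for pairs of all tested genes. These correlations describe hearts that share library depth and tissue make-up, and they carry no test. They include NTG TAC replicates 6 and 10, the highest of their group for 12 and 18 of the 33 genes. Correlations without these hearts were not computed, so their part in the values by class is not known. Class I genes correlated with each other at a median of 0.68, GTPases with each other at 0.65 and antiviral effectors with each other at 0.54. Sensors and transcription factors were less alike, at 0.30 with each other and 0.42 with antiviral effectors. Between classes, GTPases and class I genes were at 0.60, whereas antiviral effectors and GTPases were at 0.30. The closest pair was H2-K1 and H2-D1 (r = 0.96), the class I heavy chains, which share sequence. Tap1 was closest to Psmb8, an immunoproteasome subunit (r = 0.82), Ifit3 to Ifit1 (r = 0.81), Igtp to Irgm2 (r = 0.81) and Irf7 to Oasl2 (r = 0.81). Trim25, a ubiquitin ligase of the RIG-I pathway, had a median correlation of -0.11 with the other 32, the lowest of the 33.

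The wider pathway was followed with 126 further genes, of which 123 were in the tables and 110 were tested. Of the ligands, Ifnb1, Ifna4 and Ifnl2 had no count in any of the 30 libraries. Ifng had 6 counts in all, in 5 libraries, and Ifna2 and Ifnl3 had 1 count each. A count of 0 allows up to 3 counts, which correspond to 0.229 to 0.325 CPM in a library, by counting error only.

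With TAC in NTG hearts 7 of the 110 genes (6.36%) rose and 2 (1.82%) fell, both shares below the 9.46% and 8.13% of all tested genes. Ifngr1, the ligand-binding chain of the interferon gamma receptor, went from 69.7 ± 7.91 (SD, n = 5) to 93.5 ± 15.6 CPM (SD, n = 10), with a log2 difference of 0.42 ± 0.10 (adjusted p = 0.00637 by edgeR). Psmb10, an immunoproteasome subunit, rose by 0.40 ± 0.09 (adjusted p = 0.00479), and Psme1, a subunit of the proteasome activator, fell by 0.46 ± 0.11 (adjusted p = 0.00864). These 3 calls held in each of 30 fits that left out 1 library. Fits with 1 surrogate variable and fits of 2 groups alone ended the Ifih1 and Ifit2 calls. Those fits are not reported here for the wider genes, in any comparison. Dhx58, which encodes the RNA sensor LGP2, rose by 0.67 ± 0.21 (adjusted p = 0.0262) and Trim30a by 0.42 ± 0.12 (adjusted p = 0.0196). The Dhx58 call was lost without NTG Sham replicate 2 or 4 and the Trim30a call without NTG Sham replicate 3 or 4. Oasl1, Gbp6 and Ctss rose and Cxcl9 fell, with adjusted p from 0.0404 to 0.0485, and their calls were lost in 9, 19, 20 and 9 of the 30 fits. The Cxcl9 call was among those lost without NTG Sham replicate 5 (adjusted p = 0.0957).

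The class II genes present peptides on macrophages, dendritic cells and B cells. In this comparison they were positive in 10 of 10 tested, with a median of 0.26. With TAC in TG hearts 10 of 10 were negative (median -0.18), and after Sham 9 of 10 were higher in TG hearts (0.22). After TAC 10 of 10 were lower in TG hearts (-0.31), and the interaction was negative for 10 of 10 (-0.47). These comparisons share groups. Ctss, the protease that trims the class II invariant chain, was the 1 called, with TAC in NTG hearts only. Ctss reached 70.2 CPM in its highest NTG TAC heart, with a group median of 16.5 CPM. Without NTG Sham replicate 5 its adjusted p was 0.0522.

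In TG hearts none of the 110 genes was called after TAC (edgeR, with 9 at an unadjusted p under 0.05; DESeq2 and limma-trend called 0 and limma voom 6). Between the genotypes after Sham edgeR called 1 of the 110, Canx, a chaperone of class I folding, at 0.34 ± 0.08 (adjusted p = 0.0192), while DESeq2 and limma voom called 2 each. The Canx call was lost without NTG Sham replicate 3, 4 or 5 or TG Sham replicate 1 or 2, with an adjusted p of 0.0764 without NTG Sham replicate 5. After TAC Canx was higher in TG hearts by 0.34 ± 0.05 (adjusted p = 0.000176) and Jak1, the kinase shared by type I and interferon gamma receptors, by 0.24 ± 0.06 (adjusted p = 0.00911). These 2 were 1.82% of the 110, beside 4.57% of all genes called higher. Lower in TG TAC than in NTG TAC hearts were 8 of the 110 (7.27%), close to the 6.86% of all genes. They included Ifngr1 at -0.36 ± 0.08 (adjusted p = 0.00653), Psmb10 at -0.32 ± 0.07 (adjusted p = 0.00640) and Ifi35, an interferon-induced regulator, at -0.23 ± 0.06 (adjusted p = 0.0164), all kept in each of the 30 fits. Ifitm2, Ifi27l2a, Dhx58, Tapbp and Ly6e made up the rest, with adjusted p from 0.0252 to 0.0491, and each of their calls was lost in at least 3 of the fits. None of the 110 was called for the interaction (edgeR, with 10 at an unadjusted p under 0.05; DESeq2, limma voom and limma-trend called 0). Both TAC comparisons and both genotype comparisons share groups, so these values do not support each other independently.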

How the data were processed

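The authors deposited, per library, raw counts per Entrez gene and CPM. Recomputing each count per 1000000 counts of its library gave the deposited CPM exactly. The submitters' processing notes name Trim Galore 0.6.4, TopHat, Bowtie2 2.2.9, edgeR 3.17 and the build mm10. The counting program and its strand setting are not given in the sources used here. Libraries were strand-specific mRNA from 1.3 ug of total RNA, per the labels' protocols.

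Tests ran on the deposited counts, with edgeR 4.0.16 under R 4.3.3 (filterByExpr, minimum count 10, TMM, robust quasi-likelihood fit of 4 groups over 30 libraries, Benjamini-Hochberg adjustment over 13588 genes). A standard error is the absolute log2 fold change over the square root of F. Log2 levels used a prior count of 2. DESeq2 1.42.0, limma 3.58.1 (a pseudocount of 0.5 for limma-trend) and sva 3.50.0 served the alternatives, which also covered scaling, filters, the name number, the replicate block and each library left out. Groups came from the sample titles, and nothing says beyond the titles that libraries are separate animals. The p-values therefore weigh group differences against the spread between these libraries, which may not be the spread between animals.

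All 33 genes are named, by role. Of the wider lists, genes with the 3 smallest p per list and comparison, and all called genes of a list with at most 5, could be named, and the text gives part of them. The genes, lists and tests were chosen with earlier results of these data known. By edgeR, B cell (5 tested), plasmacytoid dendritic cell (3), endothelial (8) and erythroid (3) markers gave 0 called genes in each comparison, with 4 gene-by-comparison tests at an unadjusted p under 0.05 over all 5 comparisons. The plasmacytoid dendritic cell list held Bst2, itself among the 33 genes, and Irf8, of the wider lists, so it is not separate from them. NK cell and neutrophil markers did not pass the filter and were not tested. Of thymocyte and T cell markers, 7 of 7 tested were called lower with TAC in NTG hearts and 0 without NTG Sham replicate 5. Of 8 cardiomyocyte markers, 5 fell with TAC in NTG hearts and Ryr2 was higher in TG TAC than in NTG TAC hearts.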

Additional observations from a re-analysis of the deposited data

Results flagged for a closer look

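Single hearts stood apart from the rest of their group in 18 of 132 combinations of a gene and a group, by the gap to the nearest other heart relative to the range of the group. Chance gives about 1 in 20 for independent values, but the 33 genes vary together and share hearts, and 14 of the 18 came from 4 hearts. Over all tested genes 6.70% of such combinations stood apart, against 13.6% for the 33 genes. In NTG TAC hearts these were Irf7 at 40.5 CPM, Ifit3 at 30.1, Usp18 at 8.98, Oas1a at 9.83, Oasl2 at 55.2 and Bst2 at 38.9 CPM in replicate 10. Replicate 6 had Igtp at 40.5 and B2m at 778 CPM. TG TAC replicate 9 stood apart for Stat2 at 42.2, Gbp3 at 24.4, Gbp7 at 31.0 and Tap1 at 33.8 CPM. TG Sham replicate 5 had Gbp2 at 37.1 CPM. Among NTG Sham hearts, replicate 2 was low for Ifit3 at 7.95 CPM and high for Oas1a at 4.31 CPM. Replicate 1 was low for Igtp at 17.5 CPM, replicate 4 was high for Gbp3 at 21.8 CPM, and replicate 5, the heart with thymocyte markers, was high for Irf9 at 33.3 CPM.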

How the results depend on the processing

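The count of the 33 genes called with TAC in NTG hearts (2) was 0 with 1 surrogate variable and 0 in the groups-only fit. This count was 1 with the replicate block and 3 with DESeq2, and ran from 2 to 4 with 1 library left out. For genotype after Sham (0) it was 1 with the name number term and 1 with limma voom, and 0 without any 1 library. For genotype after TAC (1) it was 0 with 1 surrogate variable, in the groups-only fit, with limma-trend, without a filter and with limma voom, and 2 with the name number term, and ran from 0 to 5 with 1 library left out. For TAC in TG hearts and the interaction it was 0 under every alternative run, each library left out included.

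Over all genes, 17.6% were called with TAC in NTG hearts, 1.56% with 1 surrogate variable, 1.57% in the groups-only fit and 11.3 to 23.6% with 1 library left out. With TAC in TG hearts 1.43% were called, 5.87% with 1 surrogate variable, 2.79% by DESeq2, 6.98% groups-only, 0.11% with the name number term, 9.6% by limma voom and 0.68 to 2.18% with 1 library left out. For genotype after Sham 0.729% were called, 1.33% with 1 surrogate variable, 1.78% groups-only, 1.83% by limma voom and 0.41 to 0.85% with 1 library left out. For genotype after TAC 11.4% were called, 2.3% with 1 surrogate variable, 4.75% groups-only, 4.57% by limma voom and 6.07 to 17.6% with 1 library left out. The interaction gave 0%, 0.0368% by DESeq2, 0.00736% by limma-trend and 0 to 0.0147% with 1 library left out, and has no groups-only fit. The cause of these differences was not tested. Scaled by library totals only, the mean of the 33 genes in NTG Sham replicate 5 was 0.0902 above the NTG Sham mean.

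With the replicate block the Ifih1 change with TAC in NTG hearts was 0.29 ± 0.10 (adjusted p = 0.0535 by edgeR), and the median over the 33 genes was -0.04 instead of 0.10. Replicate numbers were not taken as pairing hearts, since only 8 of 35 same-numbered combinations correlated above 0.1 in their deviations from group means (median 0.05, range -0.15 to 0.55). No value of a single gene reversed a called direction. Of the fold changes of the 33 genes under the alternatives, 6486 kept their direction and their side of the threshold, 23 newly passed it, 20 no longer did, and 203 that were not called changed sign. Within a group, no library pair was alike within counting error (lowest chi-square per degree of freedom 2.85 over 110 pairs). The lowest of the 33 genes had few counts per library, so counting error limits Isg15, Oas1a and Usp18 most.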
